A study of Mus musculus with 37 samples.

Results

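Adam8, Adam17, Adamts1, Adamts15, Adamts18, Tmprss6 and Tmprss11a encode proteases that act at or outside the cell surface, and their RNA was followed in mature luminal cells sorted from the mouse mammary gland. The 7 genes were chosen by symbol, with earlier results of the same counts known, out of 52636 genes in the deposited tables. The record does not say which difference chose each gene. A gene that was among the 10 called genes with the largest rise or fall of a comparison was taken as chosen by it, and its values there carry no p-value. That applied to Tmprss11a in 3 comparisons, and a difference of responses that contains 1 of them is given with no test either. Other Tmprss11a differences that use a placebo group share libraries with these 3, so their p-values are not independent of the choice.

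The cells carried mouse Esr1, the gene of estrogen receptor alpha, as the Y541S mutant, the D542G mutant or WT. All mice were ovariectomized at 8 weeks of age, which removes the ovarian source of hormone. For the next 8 days a pellet delivered estradiol and progesterone together (E2+P4), estradiol alone (E2), progesterone alone (P4) or placebo. This made 12 groups and 37 libraries, 4 of WT P4 and 3 of every other group. The submitters call them biological replicates without saying whether a library stands for 1 animal or a pool, and the p-values therefore cover only the spread among these libraries. The labels do not state whether the mutant mice carried the allele on 1 or both chromosomes.

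ADAM proteins are membrane-anchored metalloproteases that cut the outer parts of other membrane proteins, a step called shedding, which frees growth factors and cytokines. ADAMTS proteins are secreted relatives that cut proteoglycans and other matrix proteins. TMPRSS proteins are type II transmembrane serine proteases, anchored by their amino terminus. In the mouse mammary gland, shedding of amphiregulin by ADAM17 is known to carry the estrogen signal from hormone-sensing luminal cells to their neighbours during duct growth.

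Counts per library summed to 25.69 to 52.24 M, with a median of 41.26 M. Esr1 itself averaged 82.1 ± 25.1 CPM in Y541S placebo, 171 ± 25.9 in D542G placebo and 688 ± 130 in WT placebo cells (SD, n = 3 each); counts per gene cannot show the mutated base. The 11 markers of hormone-sensing luminal cells, none of them at 0 in all libraries, summed to 6460 to 19200 CPM. They stood at 6460 to 7810 CPM in D542G E2+P4 and 7500 to 9950 CPM in D542G P4, against 13900 to 15900 CPM in D542G placebo. In D542G E2 they stood higher, at 17700 to 19200 CPM. Y541S placebo held 9570 to 13300 CPM of them. Y541S E2 held 7270 to 9770 CPM, Y541S P4 7600 to 9090 CPM and Y541S E2+P4 6930 to 8370 CPM. In WT E2 the same markers stood at 8090 to 12000 CPM, against 10800 to 15300 CPM in WT placebo. Markers of other cells were also present. The 10 luminal progenitor and alveolar markers, with Csn3 at 0 in all libraries, summed to 8020, 29000 and 26800 CPM in WT E2, against 3430 to 4010 CPM in WT placebo, and in 2 of the 3 WT E2 libraries they exceeded the hormone-sensing sum. These shifts go with every value given below for the same groups, and their part in the results was not tested. The 8 endothelial markers summed to 301 to 481 CPM in WT E2+P4, against 41 to 50.4 CPM in WT placebo. The 9 fibroblast markers summed to 459, 4050 and 4130 CPM in Y541S placebo, against 37.9 to 324 CPM in WT placebo. The 12 leukocyte markers, with Itgam at 0 in all libraries, summed to 75 to 231 CPM in WT E2, against 8.48 to 11.8 CPM in WT placebo. The 11 basal markers reached 933 CPM in WT placebo 2 and 830 CPM in WT P4 2. The library Y541S placebo 5 and the WT P4 libraries 4 and 5 belong to a later identifier series and had at most 31.33 M counts, against at least 32.67 M in the others. In a bulk sample, fewer cells of a type and less RNA per cell cannot be told apart. The marker sums include genes whose own level differed between hormone groups. Esr1, a hormone-sensing marker, averaged 24.3 ± 14.8 CPM in WT E2. Areg, another of that list, averaged 294 ± 90.1 CPM in WT E2, against 105 ± 25.4 CPM in WT placebo. The progenitor and alveolar list includes the milk genes Csn2, Wap and Lalba.

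The promoters of 5 of the 7 genes were found in RefSeq on GRCm38.p6. Shown here are the 250 bases before the start of the genes with the widest span of levels, Tmprss11a and Adam8, and of the 2 genes that held a searched motif, Adamts1 and Adam17. All 4 genes lie on the minus strand, and the sequences read 5′ to 3′ along the gene. They span chr5:86468991-86469240 for Tmprss11a, chr7:139992563-139992812 for Adam8, chr16:85803114-85803363 for Adamts1 and chr12:21373633-21373882 for Adam17. Capitals mark TATAAA in Adamts1 and GGTCA, an arm of the estrogen response element, in Adam17.
Tmprss11a: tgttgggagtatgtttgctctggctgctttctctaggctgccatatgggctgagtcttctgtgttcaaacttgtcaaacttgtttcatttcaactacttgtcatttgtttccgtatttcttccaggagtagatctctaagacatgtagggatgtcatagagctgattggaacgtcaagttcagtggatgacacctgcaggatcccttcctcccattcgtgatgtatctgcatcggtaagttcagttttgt
Adam8: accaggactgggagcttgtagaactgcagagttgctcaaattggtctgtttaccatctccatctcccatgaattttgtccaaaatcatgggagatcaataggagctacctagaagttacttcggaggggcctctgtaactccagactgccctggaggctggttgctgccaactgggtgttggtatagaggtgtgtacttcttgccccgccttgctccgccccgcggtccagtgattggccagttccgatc
Adamts1: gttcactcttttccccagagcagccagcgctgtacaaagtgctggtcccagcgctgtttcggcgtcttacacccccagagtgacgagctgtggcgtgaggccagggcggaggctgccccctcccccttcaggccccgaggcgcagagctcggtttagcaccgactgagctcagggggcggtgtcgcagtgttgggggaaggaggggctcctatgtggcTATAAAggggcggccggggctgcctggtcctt
Adam17: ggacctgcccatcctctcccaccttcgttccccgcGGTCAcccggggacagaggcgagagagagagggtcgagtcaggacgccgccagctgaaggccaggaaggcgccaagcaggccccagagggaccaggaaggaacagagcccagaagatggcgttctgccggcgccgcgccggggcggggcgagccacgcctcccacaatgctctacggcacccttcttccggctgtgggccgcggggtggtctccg

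The Adamts1 TATAAA begins 32 bases before the start, and 12.4% of 32851 promoters held that motif on either strand. The Adam17 GGTCA begins 215 bases before the start, and 35.2% of promoters held it; a whole element contains this arm, so the searches overlap. The whole element, GGTCA and TGACC 3 bases apart (0.0639% of promoters), the core ACANNNTGT of the progesterone and glucocorticoid response element (5.84%) and the AP-1 site TGANTCA (6.75%) were not among the letters of the 5 windows. GC content was 43.6% for Tmprss11a, 52.8% for Adam8, 65.6% for Adamts1 and 70.4% for Adam17, against a median of 52.4% over all promoters.

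All 7 genes passed the filter on low counts, among 18426 tested genes. A gene was called where the adjusted p of edgeR's quasi-likelihood test, Benjamini-Hochberg over all tested genes, was under 0.05. In WT cells E2 raised 4 of the 7 and lowered 1, where 31.5% of all tested genes were called. P4 raised 2 of 7 in WT cells, with 1.43% of all genes called, and E2+P4 raised 3 of 7, with 23.4% called. Set against P4 alone, WT E2+P4 was higher for 4 of 7 (23.2% of all genes called). Set against E2 alone, it was higher for 2 and lower for 1 (18.5% called).

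In D542G cells E2 raised 3 of 7 (15.7% of all genes called), P4 raised 4 and lowered 2 (18.4%), and E2+P4 raised 5 and lowered 1 (25.4%). In Y541S cells edgeR called 0 of 7 for E2 (4.65% of all genes called), with 2 at an unadjusted p under 0.05 and 0 called by DESeq2. P4 raised 1 and lowered 1 of the 7 in Y541S cells (11.3%), and E2+P4 raised 3 and lowered 1 (18.5%). Without hormone, 4 of 7 were higher in Y541S placebo than in WT placebo (13.4% of all genes called), and 2 of 7 in D542G placebo than in WT placebo (2.02%). The counts for D542G P4, Y541S P4 and D542G placebo, here and in later sections, include Tmprss11a. Its differences there are given with no test and describe the choice. Within a genotype all hormone groups share the placebo libraries, and both mutant placebo groups are set against the same WT placebo libraries. The shares of all genes were counted in the same comparisons, and since the members were chosen with results known, an excess over them is a description of the choice.

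**Figure D1:**
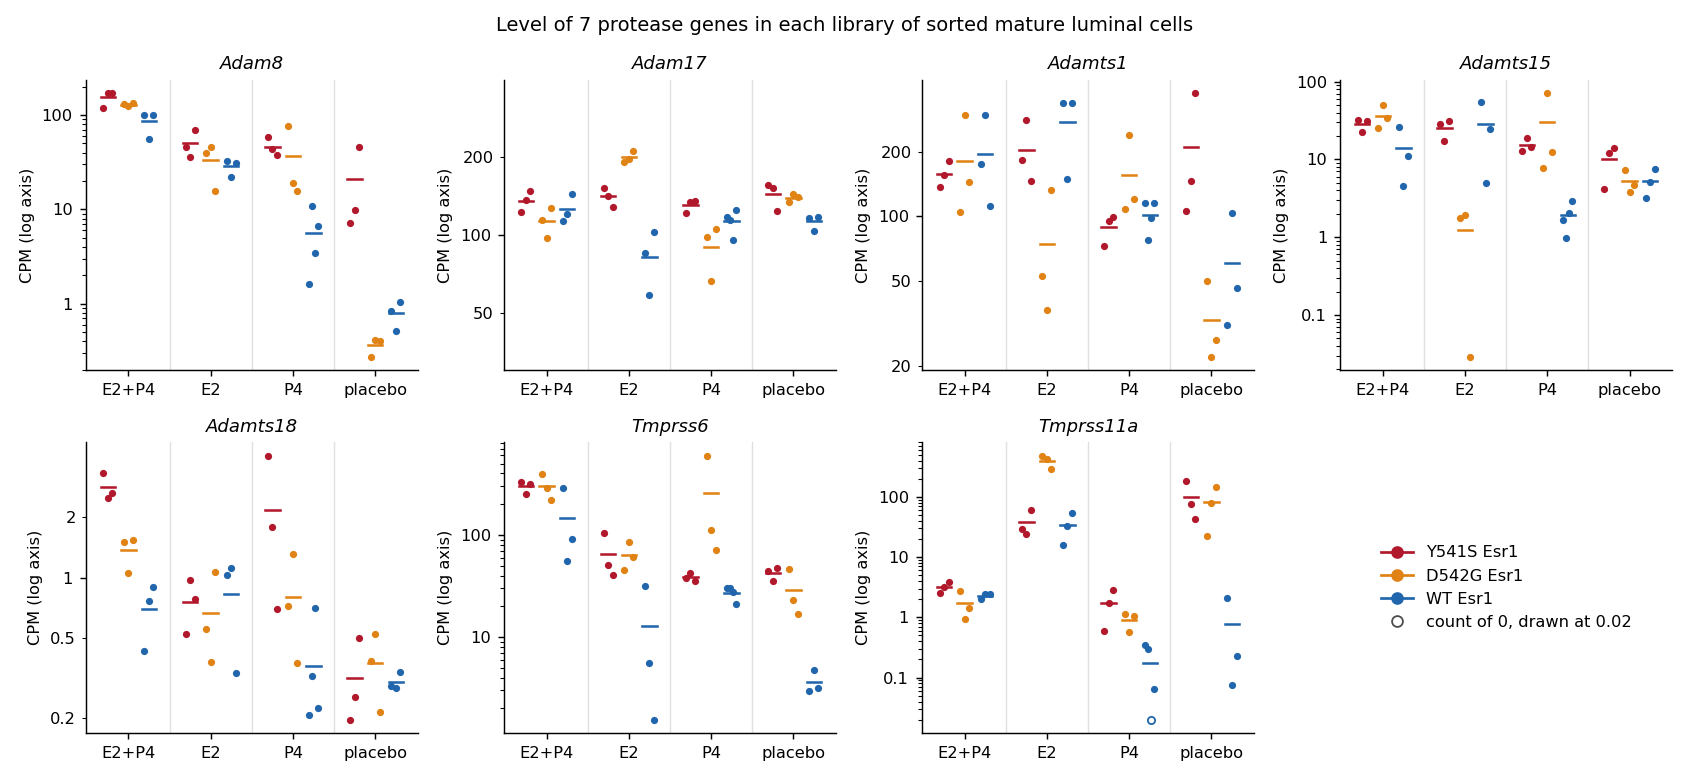
Level of each protease gene in each of the 37 libraries, as CPM on a log axis, by treatment (x axis) and Esr1 genotype (colour); points are libraries, short lines are group means and an open point is a count of 0. Adam8 is highest in the E2+P4 groups, and Adam17 stays between 58.7 and 211 CPM. Tmprss11a lies at or below 3.89 CPM in every library given P4 and at or below 2.06 CPM in WT placebo.

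**Figure D2:**
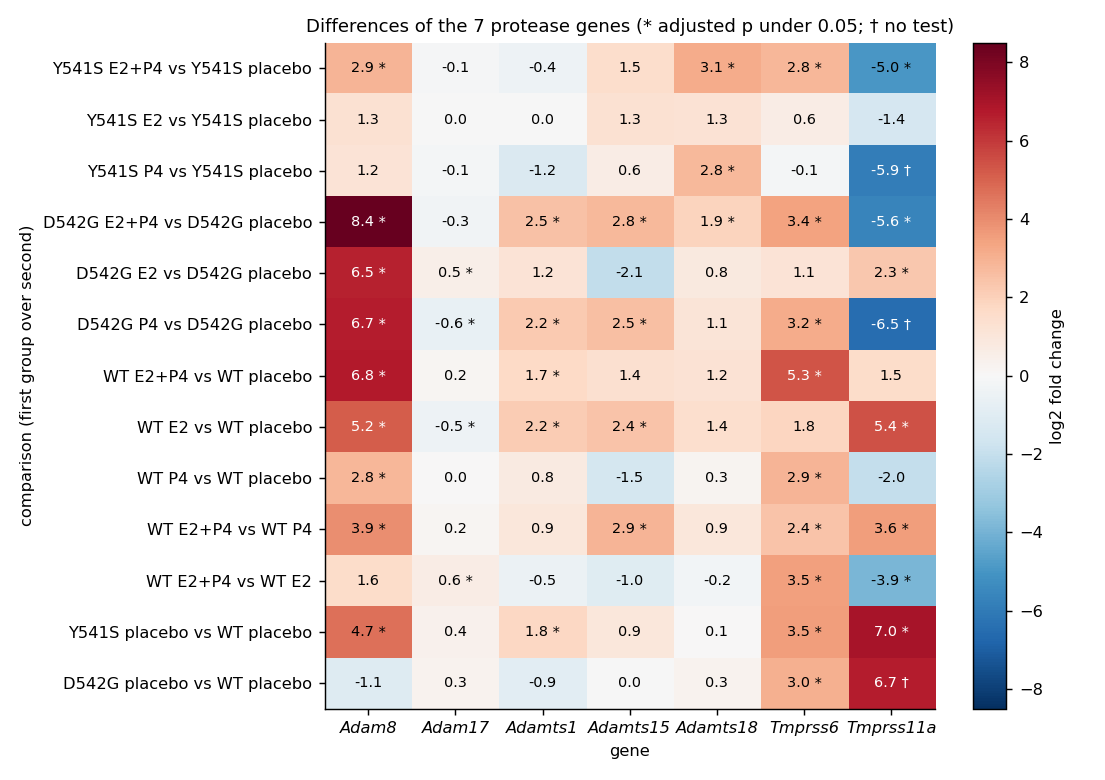
Log2 fold change of the 7 genes (columns) in 13 comparisons (rows, first group over second); a star marks an adjusted p under 0.05 and a dagger a value given with no test. Adam8 and Tmprss11a hold the widest ranges, from 1.16 to 8.45 and from -6.48 to 5.44 over the 9 hormone comparisons.

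Adam8 (ENSMUSG00000025473, chromosome 7, 139978932 to 139992562, GRCm38) encodes a sheddase known from leukocytes and from some epithelial tumours. It was near the detection limit in placebo cells of WT and D542G genotype and rose with hormone in 7 of 9 comparisons. With E2+P4 it stood at 119, 171 and 170 CPM in Y541S cells, 129, 123 and 133 CPM in D542G cells and 101, 55.4 and 101 CPM in WT cells. With placebo it stood at 7.13, 9.9 and 45.2 CPM in Y541S cells, 0.273, 0.409 and 0.405 CPM in D542G cells and 0.836, 0.511 and 1.04 CPM in WT cells. Within each genotype every E2+P4 library lay above every placebo library.

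The E2+P4 difference in Adam8 was 8.45 ± 0.84 on the log2 scale in D542G cells (adjusted p = 3.9e-08), 6.75 ± 0.78 in WT cells (adjusted p = 2.13e-07) and 2.89 ± 0.63 in Y541S cells (adjusted p = 0.00166). E2 alone gave 39.3, 46.1 and 15.7 CPM in D542G cells and 32.7, 21.8 and 31 CPM in WT cells. These are rises of 6.53 ± 0.79 (adjusted p = 1.5e-06) and 5.17 ± 0.73 (adjusted p = 4.31e-06) over placebo. P4 alone gave 76.6, 18.8 and 15.5 CPM in D542G cells, a rise of 6.66 ± 0.79 (adjusted p = 5.71e-06), and 1.61, 10.8, 3.49 and 6.62 CPM in WT cells, a rise of 2.82 ± 0.66 (adjusted p = 0.0278). The WT P4 rise was lost in 5 of 7 runs that left out a library, with adjusted p of 0.0676 to 0.156, and its groups did not overlap.

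In WT cells Adam8 was also higher with E2+P4 than with P4, by 3.93 ± 0.59 (adjusted p = 1.18e-05). Against E2 alone the difference was 1.59 ± 0.60 (adjusted p = 0.0628), and it passed in the libraries of the earlier identifier series (1.61, adjusted p = 0.0305). In Y541S cells E2 gave 45.7, 36.1 and 70 CPM and P4 57.7, 43.1 and 37.3 CPM. Both overlap the 45.2 CPM of Y541S placebo 5. The differences from placebo were 1.29 ± 0.60 (adjusted p = 0.253) and 1.16 ± 0.59 (adjusted p = 0.231). Without Y541S placebo 5 they were 2.57 (adjusted p = 0.00733) and 2.43 (adjusted p = 0.00982). Y541S placebo exceeded WT placebo by 4.70 ± 0.72 (adjusted p = 3.56e-05).

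Leukocyte markers were also higher in the groups of WT and D542G cells where Adam8 was. Their sum was 71.1 to 109 CPM in D542G E2+P4, against 11.2 to 24.7 CPM in D542G placebo, and 38.9 to 172 CPM in WT E2+P4, against 8.48 to 11.8 CPM in WT placebo. In Y541S cells the order was the other way, with 32.4 to 54.2 CPM in E2+P4 and 46.6 to 172 CPM in placebo. Y541S placebo 5 was the library with both 172 CPM of leukocyte markers and the highest Adam8 of its group. Other libraries went the opposite way. D542G E2 libraries held 55.6, 13.6 and 157 CPM of leukocyte markers, with 39.3, 46.1 and 15.7 CPM of Adam8. D542G P4 2 held 177 CPM of them with 18.8 CPM of Adam8, and D542G P4 1 held 40.5 CPM with 76.6 CPM. WT E2+P4 2 held 172 CPM with 55.4 CPM of Adam8, the lowest of its group. The part of leukocytes in the Adam8 differences was not tested.

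Adam17 (ENSMUSG00000052593, chromosome 12, 21323509 to 21373632), the sheddase of TNF and of several EGF receptor ligands, varied least. Its group means ran from 82.4 to 200 CPM, a ratio of 2.43. D542G E2 was the highest group with 192, 197 and 211 CPM, above D542G placebo with 135, 144 and 140 CPM. No library of another group reached 192 CPM. WT E2 was the lowest with 85.7, 58.7 and 103 CPM, below WT placebo with 117, 104 and 118 CPM.

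The E2 difference in Adam17 was thus a rise of 0.51 ± 0.16 in D542G cells (adjusted p = 0.0275) and a fall in WT cells (-0.45 ± 0.16, adjusted p = 0.0317). The D542G rise lost its call in 5 of 6 leave-one-out runs (adjusted p 0.0613 to 0.0973). The WT fall lost its call in 4 of 6 and was -0.26 (adjusted p = 0.241) without WT E2 2. Without the filter on low counts the adjusted p was 0.0563 for D542G and 0.0601 for WT. P4 in D542G cells gave 98.4, 66.7 and 106 CPM, a fall from placebo (-0.63 ± 0.16, adjusted p = 0.00713) that was -0.45 (adjusted p = 0.0805) without D542G P4 2. WT E2+P4 exceeded WT E2 by 0.62 ± 0.16 (adjusted p = 0.00685), a call lost without WT E2 2 (0.42, adjusted p = 0.0763) and also without WT E2+P4 3 (0.51, adjusted p = 0.0621). In Y541S cells all libraries lay between 122 and 156 CPM. Iah1 and Gm22766 lie over 4.3% of the Adam17 exon length, and whether reads were counted by strand was not given.

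Adamts1 (ENSMUSG00000022893, chromosome 16, 85793827 to 85803113) encodes a secreted protease of versican and aggrecan that is known as a progesterone-induced gene of the ovary. In the sorted cells it rose with hormone in 4 of 9 comparisons. E2 gave 336, 149 and 338 CPM in WT cells, and placebo 31.2, 104 and 46.2 CPM. The groups did not overlap, and the rise was 2.18 ± 0.53 (adjusted p = 0.00234). E2+P4 gave 175, 296 and 111 CPM in WT cells, a rise of 1.68 ± 0.53 (adjusted p = 0.0195). That call was lost without WT placebo 1 (1.37, adjusted p = 0.11), WT placebo 3 (1.52, adjusted p = 0.0876) or WT E2+P4 2 (1.24, adjusted p = 0.127).

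D542G cells had 105, 295 and 144 CPM of Adamts1 with E2+P4 and 108, 239 and 120 CPM with P4, against 50, 22.1 and 26.5 CPM with placebo. The rises were 2.46 ± 0.54 (adjusted p = 0.00115) and 2.24 ± 0.54 (adjusted p = 0.00437). With E2 the libraries at 52.6, 36.7 and 133 CPM overlapped placebo (1.17 ± 0.52, adjusted p = 0.127). In Y541S placebo Adamts1 stood at 106, 146 and 375 CPM, above WT placebo by 1.79 ± 0.53 (adjusted p = 0.022). Without Y541S placebo 5, the library at 375 CPM, the difference was 1.06 (adjusted p = 0.241). The call was also lost without WT placebo 1 (1.48, adjusted p = 0.132) or WT placebo 3 (1.63, adjusted p = 0.108). No hormone moved it past the threshold in Y541S cells, and without Y541S placebo 5 the E2+P4 difference was 0.32 in place of -0.41. WT placebo 2, the library with 933 CPM of basal markers, had the highest Adamts1 of its group, and the part of basal cells was not tested. The Adamts1 rises in WT cells go with the luminal progenitor and alveolar sum of 8020 to 29000 CPM in WT E2 and the endothelial sum of 301 to 481 CPM in WT E2+P4, against 3430 to 4010 and 41 to 50.4 CPM in WT placebo, and their part was not tested.

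Adamts15 (ENSMUSG00000033453, chromosome 9, 30899155 to 30922452) encodes another protease of aggrecan and versican. It was highest in D542G E2+P4 at 25.1, 49.6 and 33.8 CPM, against 7.29, 3.79 and 4.67 CPM in D542G placebo, a rise of 2.78 ± 0.84 (adjusted p = 0.0148). The call was lost without D542G placebo 2 (2.59, adjusted p = 0.0709) or D542G placebo 3 (2.70, adjusted p = 0.0556). D542G P4 libraries held 7.76, 71.5 and 12.4 CPM, a rise of 2.54 ± 0.83 (adjusted p = 0.0322) that was 0.94 (adjusted p = 0.511) without D542G P4 2. That rise lost its call in 4 of 6 leave-one-out runs. D542G P4 2 also held 10200 CPM of luminal progenitor and alveolar markers, 177 CPM of leukocyte and 358 CPM of basal markers. The other D542G P4 libraries held 3370 and 4190, 40.5 and 37.3, and 147 and 105 CPM of the same lists, whose part in the rise was not tested. D542G E2 stood at 1.78, 1.93 and 0.0288 CPM, the last a single read, all below placebo (-2.07 ± 0.85, adjusted p = 0.0953; DESeq2 adjusted p = 0.0336).

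In WT cells E2 gave 54.8, 4.99 and 24.5 CPM of Adamts15, against 3.16, 5.18 and 7.52 CPM with placebo. The groups overlapped, and the rise of 2.41 ± 0.83 (adjusted p = 0.0265) was 1.48 (adjusted p = 0.196) without WT E2 1. It was also lost without WT placebo 1 (2.15, adjusted p = 0.106) or WT placebo 2 (2.40, adjusted p = 0.0661). WT E2+P4 libraries at 25.8, 4.58 and 11.2 CPM exceeded WT P4 libraries at 1.68, 0.973, 2.02 and 2.96 CPM by 2.86 ± 0.77 (adjusted p = 0.00689). Without WT E2+P4 1 the difference was 2.05 (adjusted p = 0.078). Y541S libraries with hormone lay between 12.8 and 32.5 CPM, against 4.12, 12 and 14.2 CPM with placebo, and none of these differences passed. Adamts8, a protease gene 20.1 kb away on chromosome 9 and transcribed from the opposite strand, rose in WT E2 as well (10.7 ± 4.34 against 0.766 ± 0.19 CPM; 3.79 ± 0.73, adjusted p = 0.000214). It also rose in D542G P4 (3.98 ± 0.75, adjusted p = 0.000541) and in D542G E2+P4 (4.49 ± 0.76, adjusted p = 6.97e-05). Adamts8 rose as well in Y541S E2+P4 (2.15 ± 0.68, adjusted p = 0.0274) and WT E2+P4 (2.58 ± 0.70, adjusted p = 0.00744), where Adamts15 did not pass.

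Adamts18 (ENSMUSG00000053399, chromosome 8, 113697126 to 113848738) encodes a protease of fibronectin, known in the mouse gland from the myoepithelial layer. It had from 7 to 177 reads per library, so its values carry a large counting error. In single groups other members had fewer, with 0 to 15 reads of Tmprss11a in WT P4 and 1 read of Adamts15 in D542G E2 3. Y541S E2+P4 held 3.32, 2.5 and 2.63 CPM and Y541S P4 4.05, 1.79 and 0.694 CPM, against 0.196, 0.254 and 0.503 CPM in Y541S placebo. The groups did not overlap, with rises of 3.15 ± 0.64 (adjusted p = 0.000884) and 2.78 ± 0.63 (adjusted p = 0.00406). Without Y541S P4 1 the P4 rise was 1.97 (adjusted p = 0.0582). D542G E2+P4 reached 1.5, 1.06 and 1.54 CPM, against 0.386, 0.522 and 0.213 CPM in D542G placebo, a rise of 1.86 ± 0.61 (adjusted p = 0.024). It lost its call in 4 of 6 leave-one-out runs (adjusted p 0.0556 to 0.11). In WT cells all libraries lay between 0.207 and 1.12 CPM, and no hormone difference passed. For WT E2 the difference was 1.45 ± 0.61 (adjusted p = 0.0703), and without WT E2 3 it passed (1.82, adjusted p = 0.0305). The basal markers summed to 119 to 234 CPM in Y541S E2+P4, against 187 to 620 CPM in Y541S placebo, and to 200 to 375 CPM in D542G E2+P4, against 47.2 to 376 CPM in D542G placebo. Both pairs of ranges overlap, and the part of basal cells was not tested.

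Tmprss6 (ENSMUSG00000016942, chromosome 15, 78439667 to 78468634), matriptase-2, is known from the liver, where it cuts hemojuvelin and so lowers hepcidin. In the sorted cells E2+P4 raised it in every genotype. The libraries stood at 333, 250 and 314 CPM in Y541S, 396, 290 and 220 CPM in D542G and 290, 56 and 91.6 CPM in WT cells. Placebo libraries stood at 44.4, 35.6 and 47.2 CPM in Y541S, 46.7, 22.9 and 17 CPM in D542G and 2.98, 4.75 and 3.14 CPM in WT cells. No E2+P4 library overlapped the placebo libraries of its genotype.

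The E2+P4 rise in Tmprss6 was 2.82 ± 0.74 in Y541S (adjusted p = 0.00831), 3.39 ± 0.76 in D542G (adjusted p = 0.00148) and 5.33 ± 0.85 in WT cells (adjusted p = 2.53e-05). P4 alone left Y541S cells at 38, 42 and 35.6 CPM, within 0.14 of placebo on the log2 scale. D542G P4 held 598, 112 and 70.5 CPM, a rise of 3.17 ± 0.76 (adjusted p = 0.00428) that was 1.65 (adjusted p = 0.0953) without D542G P4 1. WT P4 held 30.4, 30.2, 27.4 and 21.2 CPM, all above WT placebo, with a rise of 2.91 ± 0.74 (adjusted p = 0.0434). Leaving out any of its 7 libraries gave differences of 2.79 to 3.16 and adjusted p of 0.0505 to 0.227.

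E2 alone moved Tmprss6 past the threshold in no genotype. WT E2 held 31.8, 5.53 and 1.55 CPM, and the difference from placebo of 1.84 ± 0.74 (adjusted p = 0.0592) became -0.05 without WT E2 1. WT E2+P4 exceeded WT P4 by 2.42 ± 0.66 (adjusted p = 0.00813), or by 1.44 (adjusted p = 0.153) without WT E2+P4 1. WT E2+P4 exceeded WT E2 by 3.49 ± 0.77 (adjusted p = 0.00165), or by 5.38 without WT E2 1. Placebo cells of both mutants exceeded those of WT, by 3.55 ± 0.79 for Y541S (adjusted p = 0.00238) and by 2.99 ± 0.77 for D542G (adjusted p = 0.0348). The D542G call was lost in 5 of 6 leave-one-out runs (adjusted p 0.0612 to 0.156), with differences of 2.46 to 3.24.

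Tmprss11a (ENSMUSG00000072845, chromosome 5, 86410410 to 86468990) belongs to a cluster of protease genes known from squamous epithelia such as that of the airway and the oesophagus. It had the widest range of the 7, with group means of 0.177 CPM in WT P4 and 401 CPM in D542G E2, a ratio of 2270. All 12 mutant libraries given P4, alone or with E2, held 0.563 to 3.89 CPM, and all 12 mutant libraries without P4 held 22.3 to 484 CPM. The 7 WT libraries given P4 held at most 2.47 CPM, and the 3 WT placebo libraries at most 2.06 CPM. The count of 0 in WT P4 4 allows up to 0.0961 CPM, by counting error alone.

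Y541S P4 held 0.594, 1.7 and 2.89 CPM of Tmprss11a and Y541S E2+P4 2.54, 3.24 and 3.89 CPM, against 183, 77 and 42.3 CPM in Y541S placebo. D542G P4 held 1.14, 0.563 and 1.05 CPM and D542G E2+P4 2.77, 0.932 and 1.42 CPM, against 22.3, 78.6 and 146 CPM in D542G placebo. None of these groups overlapped its placebo group. The E2+P4 falls were -4.96 ± 0.81 in Y541S (adjusted p = 9.19e-05) and -5.59 ± 0.84 in D542G cells (adjusted p = 1.38e-05), against the same placebo libraries as the P4 differences. The P4 differences, given with no test, were -5.88 ± 0.85 in Y541S and -6.48 ± 0.88 in D542G cells.

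E2 alone gave 484, 424 and 296 CPM of Tmprss11a in D542G cells, a rise of 2.29 ± 0.71 (adjusted p = 0.0257). The groups did not overlap, but the call was lost in 4 of 6 leave-one-out runs (adjusted p 0.0598 to 0.132) and without the filter on low counts (adjusted p = 0.0537). Y541S E2 held 29.2, 23.8 and 61.4 CPM and overlapped Y541S placebo (-1.40 ± 0.69, adjusted p = 0.292). WT E2 held 16.2, 32.5 and 54.4 CPM, against 2.06, 0.0766 and 0.225 CPM in WT placebo, a rise of 5.44 ± 0.86 (adjusted p = 1.79e-05).

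WT E2+P4 held 2.04, 2.4 and 2.47 CPM of Tmprss11a, all below WT E2 (-3.90 ± 0.78, adjusted p = 0.000617). It was above WT P4 (0.345, 0.297, 0 and 0.0636 CPM) by 3.57 ± 0.87 (adjusted p = 0.00316), and within the earlier identifier series by 2.82 (adjusted p = 0.0589). Against WT placebo the difference was 1.54 ± 0.80 (adjusted p = 0.173), and 3.93 (adjusted p = 0.00781) without WT placebo 1. Y541S placebo exceeded WT placebo by 6.99 ± 0.91 (adjusted p = 3.76e-06). Both groups also enter comparisons by which the gene counts as chosen, so that p-value is not independent of the choice. For D542G placebo the difference from WT placebo was 6.69 ± 0.90, given with no test.

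**Figure D3:**
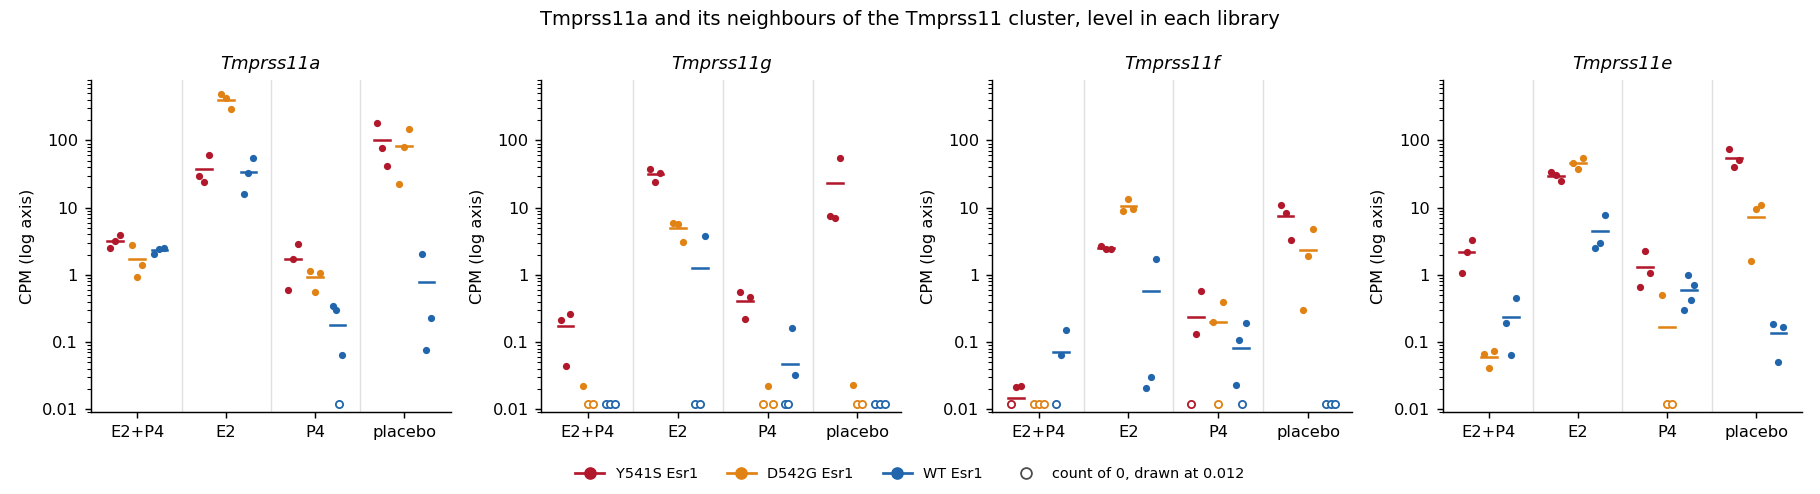
Tmprss11a and its neighbours Tmprss11g, Tmprss11f and Tmprss11e in each library, as CPM on a log axis by treatment and genotype; points are libraries, short lines group means and open points counts of 0. In all 4 genes the mutant libraries given P4 lie at or below 3.89 CPM, and the highest libraries are mutants without P4.

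The neighbours of Tmprss11a in the cluster are protease genes on the same strand of chromosome 5. Tmprss11g lies 16.9 kb away, Tmprss11f 52.9 kb, Tmprss11b 188.6 kb and Tmprss11e 236.2 kb. Tmprss11e held 1.59 to 73.7 CPM in the 12 mutant libraries without P4, against 0 to 3.3 CPM in the 12 with P4. The 3 WT E2 libraries held 2.53 to 7.9 CPM of Tmprss11e, against 0.0511 to 0.183 CPM in WT placebo, a rise of 5.04 ± 0.93 (adjusted p = 0.000123). It fell in D542G E2+P4 (-6.87 ± 1.02, adjusted p = 1.2e-05) and in Y541S E2+P4 (-4.65 ± 0.82, adjusted p = 0.000223).

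Tmprss11f and Tmprss11g were listed at 0 in all 3 WT placebo libraries. Tmprss11f reached 0.295 to 13.5 CPM in mutant libraries without P4 and at most 0.583 CPM in those with P4. Tmprss11g differed from Tmprss11a between the mutants. It stood at 7.08 to 54.2 CPM in Y541S placebo but had a single read in D542G placebo. Tmprss11b reached 6.36 CPM in 1 Y541S placebo library and 0 in all WT libraries. Tmprss11c and Tmprss11d had 7 and 45 reads over all libraries and were not tested. Members of this cluster are paralogs, and reads shared between them could have been split or dropped in counting.

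The mutants were also compared with WT by the difference of their hormone responses, an interaction term in the same fit. For E2 in Y541S cells, 2 of 7 genes had a lower response (8.02% of all genes called) and for E2+P4 also 2 (8.68%). These were Adam8 (-3.87 ± 0.90, adjusted p = 0.00701, and -3.86 ± 0.90, adjusted p = 0.00604) and Tmprss11a (-6.84 ± 1.09, adjusted p = 0.000204, and -6.50 ± 1.11, adjusted p = 0.000297). In both genes the Y541S placebo level was above that of WT placebo. For Tmprss11a both placebo groups also enter comparisons by which it counts as chosen, so its p-values here are not independent of that choice. In the earlier identifier series, which lacks Y541S placebo 5, the Adam8 differences were -2.58 (adjusted p = 0.0695) and -2.59 (adjusted p = 0.0534). Adamts1 did not pass for E2 (-2.23 ± 0.73, adjusted p = 0.0579) or for E2+P4 (-2.09 ± 0.73, adjusted p = 0.0731). DESeq2 called Adamts1 lower in both (adjusted p = 0.0195 and 0.0268).

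For P4 in Y541S cells edgeR called 0 of 7 (7.33% of all genes called), with 4 at an unadjusted p under 0.05. DESeq2 called 4 of 7, where it called 2134 of all genes and edgeR 1350. Both counts of 4 include Tmprss11a, whose difference is given with no test since it contains Y541S P4 against placebo. For E2 in D542G cells Adam17 had a higher response (0.97 ± 0.23, adjusted p = 0.00601) and Adamts15 a lower one (-4.49 ± 1.18, adjusted p = 0.0143), so 1 of 7 was called each way (9.23% of all genes called). The Adamts15 value was -3.56 (adjusted p = 0.0539) without WT E2 1. For P4 in D542G cells 2 of 7 had a higher response (3.35% called), Adam8 by 3.84 ± 0.96 (adjusted p = 0.0252) and Adamts15 by 4.01 ± 1.12 (adjusted p = 0.0415).

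The Adam8 call for D542G P4 was lost in 6 of 13 leave-one-out runs (adjusted p 0.0501 to 0.0874), with the smallest difference without D542G P4 1 (2.73). The Adamts15 call was lost in 10 of 13 (adjusted p 0.0519 to 0.296), with 2.41 without D542G P4 2. For E2+P4 in D542G cells the difference of Tmprss11a was -7.12 ± 1.13, given with no test since it contains D542G placebo against WT placebo, and no other member passed (4.3% of all genes called). All these tests use the WT placebo libraries, where Adam8 had 20 to 37 reads and Tmprss11a 3 to 79.

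**Figure D4:**
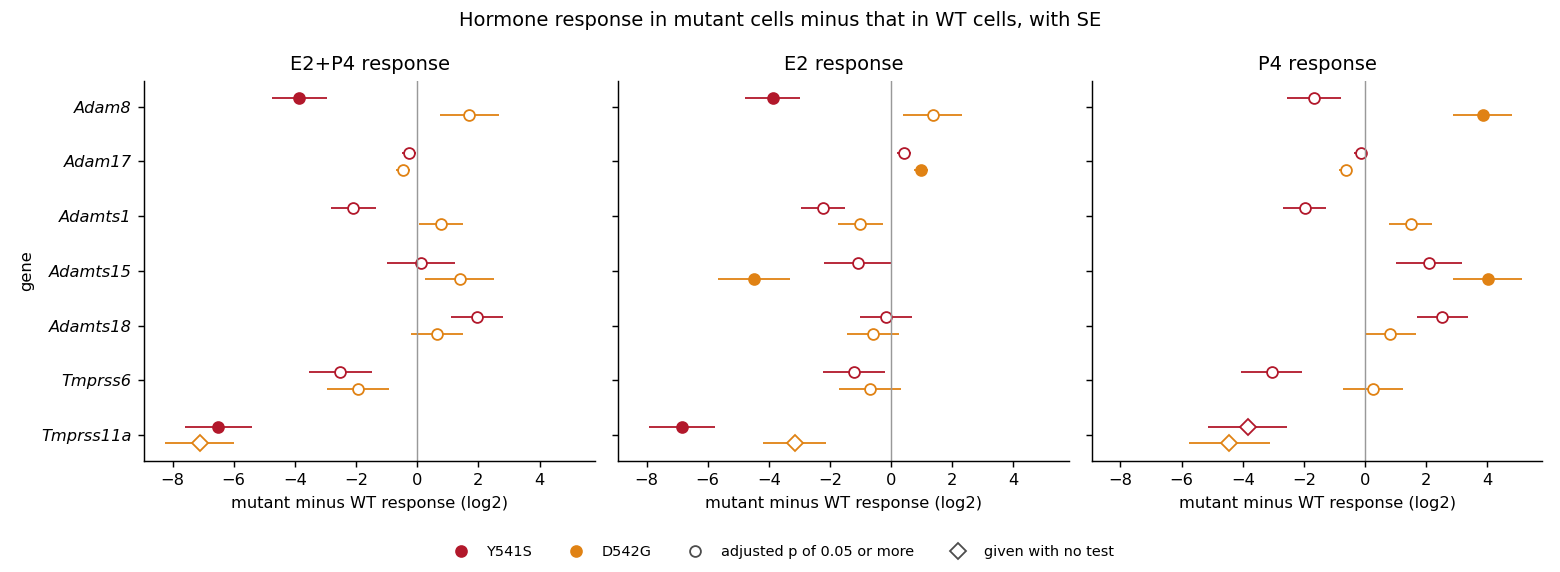
Hormone response in mutant cells minus that in WT cells, as log2 difference (x axis) for each gene (y axis), with bars of 1 SE; filled circles passed an adjusted p of 0.05 and diamonds are values given with no test. Filled circles lie below 0 for Y541S Tmprss11a, for Y541S Adam8 and for D542G Adamts15 with E2, and above 0 for D542G Adam8 and Adamts15 with P4 and D542G Adam17 with E2.

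Of the wider Adam family, 16 of 32 listed genes were tested, and 8 had no count in any library. Adam10, the main sheddase of Notch receptors, fell in 4 of 9 hormone comparisons. It averaged 313 ± 52.2 CPM in WT E2, against 982 ± 152 CPM in WT placebo (-1.65 ± 0.22, adjusted p = 2.31e-06), and 438 ± 55.2 CPM in Y541S E2, against 988 ± 293 CPM in Y541S placebo (-1.17 ± 0.22, adjusted p = 0.00183). In D542G cells Adam10 fell with P4 (-0.84 ± 0.22, adjusted p = 0.00766) and E2+P4 (-0.81 ± 0.22, adjusted p = 0.00655). In WT E2, where Adam17 fell too, 2 of the 16 were lower and none higher, where 31.5% of all genes were called, with a list median of 0.2 against 0.03 over all genes. Adam9, another sheddase, rose in WT E2+P4 (314 ± 79.3 against 173 ± 28.1 CPM, adjusted p = 0.000134) and fell in all 3 Y541S comparisons, by 0.45 to 0.75 on the log2 scale.

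Of the other Adamts and Adamts-like genes, 21 of 22 were tested. In D542G cells 8 of 21 rose with P4 (18.4% of all genes called) and 8 with E2+P4 (25.4% called), with none lower, and list medians of 2.03 and 1.36 against 0.06 over all genes. In WT cells 7 rose with E2 and 5 with E2+P4, with none lower. As numbers called in either direction these were close to the 31.5% and 23.4% of all genes called. The shares of all genes count rises and falls together. Of 18426 genes, 2873 were higher and 2923 lower with WT E2, and 2183 higher and 2126 lower with WT E2+P4. Adamts2, which trims procollagen, averaged 14.7 ± 5.11 CPM in WT E2, against 1.05 ± 0.47 CPM in WT placebo (3.81 ± 0.80, adjusted p = 0.000532). Adamts3, a relative that activates VEGF-C, averaged 19 ± 6.69 CPM in D542G P4, against 2.78 ± 0.924 CPM in D542G placebo (2.77 ± 0.49, adjusted p = 0.000283). In Y541S cells 1 rose and 3 fell with P4 (11.3% of all genes called), and 3 rose and 3 fell with E2+P4 (18.5% called). Among those that fell Adamts9 averaged 2.06 ± 0.468 CPM with P4 and 9.45 ± 1.97 CPM with placebo (adjusted p = 0.026). The fibroblast markers summed to 450 to 683 CPM with P4, below the 4050 and 4130 CPM of 2 placebo libraries and overlapping the 459 CPM of Y541S placebo 5, and their part in the result was not tested.

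Of the other type II transmembrane serine proteases, 14 of 18 were tested. Tmprss2, a gene known from androgen-responsive epithelia, fell in 8 of the 9 hormone comparisons, all but WT P4. It averaged 206 ± 46.3 CPM in WT E2, against 1470 ± 492 CPM in WT placebo (-2.84 ± 0.36, adjusted p = 1.15e-06). In D542G cells it averaged 173 ± 37.5 CPM with E2+P4 and 205 ± 61.2 CPM with P4, against 1770 ± 213 CPM with placebo (adjusted p = 1.93e-07 and 5.37e-06). Tmprss4 fell with E2 in WT (5.56 ± 3.56 against 33.4 ± 7.49 CPM, adjusted p = 0.000176) and Y541S cells (4 ± 1.17 against 27.1 ± 19.7 CPM, adjusted p = 0.00131). In Y541S cells the placebo libraries ran from 4.31 to 38.8 CPM and overlapped the E2 libraries at 2.72 to 5.02 CPM. St14, matriptase, rose in WT E2 by 0.70 ± 0.12 (adjusted p = 6.83e-05) and in WT E2+P4 by 0.50 ± 0.12 (adjusted p = 0.00333), and fell in D542G P4 (-0.50 ± 0.12, adjusted p = 0.00504).

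Of 18 listed inhibitors and Adam17 cofactors, 13 were tested. Serpine2, an inhibitor of thrombin and urokinase, was the one with the largest changes. It averaged 94.5 ± 31.4 CPM in Y541S E2+P4, against 8.82 ± 3.42 CPM in Y541S placebo (3.43 ± 0.64, adjusted p = 0.000375). In D542G cells it averaged 439 ± 47.2 CPM with E2+P4, against 8.09 ± 8.34 CPM with placebo (5.76 ± 0.71, adjusted p = 9.44e-07), and in WT cells 843 ± 131 CPM with E2+P4, against 28.8 ± 5.72 CPM with placebo (4.87 ± 0.67, adjusted p = 3.58e-06). With P4 alone Serpine2 averaged 106 ± 19 CPM in Y541S, 198 ± 38.2 CPM in D542G and 120 ± 26 CPM in WT cells. With E2 alone it averaged 12.8 ± 7.97, 5.31 ± 2.87 and 19 ± 21.9 CPM in the same order. Timp2, a metalloprotease inhibitor, fell in WT E2+P4 (204 ± 54.4 against 601 ± 93.4 CPM, adjusted p = 1.47e-06). It also fell in D542G E2+P4 (-0.65 ± 0.20, adjusted p = 0.0176) and Y541S E2+P4 cells (-0.75 ± 0.20, adjusted p = 0.00889). With a single hormone Timp2 averaged 141 ± 11.4 CPM in D542G E2 and 322 ± 71 CPM in D542G P4, against 312 ± 88.6 CPM in D542G placebo. It averaged 366 ± 57.8 CPM in Y541S E2 and 213 ± 12.2 CPM in Y541S P4, against 327 ± 46.4 CPM in Y541S placebo. In WT cells it averaged 553 ± 36.7 CPM with E2 and 492 ± 18.3 CPM with P4.

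All 30 listed shed substrates of Adam17 and Adam8 were tested. In WT E2 12 rose and 3 fell (31.5% of all genes called), with a list median of 0.67 against 0.03 over all genes. In Y541S E2 0 rose and 1 fell, where 4.65% of all genes were called. Tnfsf11, the RANK ligand that carries the progesterone signal to neighbouring cells, averaged 907 ± 221 CPM in D542G P4, against 0.134 ± 0.0457 CPM in D542G placebo (12.7 ± 1.63, adjusted p = 1.14e-05). In Y541S P4 it averaged 258 ± 52.1 CPM, against 1.53 ± 1.61 CPM in Y541S placebo (adjusted p = 0.000314). In WT P4 it stood at 15.8, 39.9, 6.15 and 2.83 CPM, with a mean of 0.231 ± 0.111 CPM in WT placebo (adjusted p = 0.0198). Areg, amphiregulin, averaged 488 ± 290 CPM in WT P4 (n = 4), against 105 ± 25.4 CPM in WT placebo (2.21 ± 0.46, adjusted p = 0.0154).

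Of 23 listed matrix substrates of Adamts proteases, 20 were tested. Thbs1, thrombospondin 1, rose in WT E2 (1130 ± 692 against 122 ± 46.9 CPM, adjusted p = 1.57e-06). In D542G P4 5 rose and 2 fell (18.4% of all genes called), with a median of 2.21 against 0.06 over all genes. In Y541S P4 0 rose and 3 fell (11.3% called), with a median of -2.13 against -0.02. Fn1, fibronectin, averaged 30 ± 21.1 CPM in Y541S P4, against 465 ± 409 CPM in Y541S placebo (-3.96 ± 1.14, adjusted p = 0.023), where 2 libraries held 4050 and 4130 CPM of fibroblast markers. The part of fibroblasts in the result was not tested. Of 26 iron-sensing genes around Tmprss6, 22 were tested. Erfe, erythroferrone, was called higher in 7 of 9 hormone comparisons but stayed low (7.45 ± 1.17 CPM in D542G E2, against 1.66 ± 0.34 CPM in D542G placebo). Fth1, ferritin heavy chain, averaged 6410 ± 2290 CPM in WT E2+P4, against 1170 ± 156 CPM in WT placebo (2.45 ± 0.21, adjusted p = 9.56e-10).

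The levels of the 7 genes did not follow one pattern. Over the 12 group means on the log2 scale, Pearson's r was 0.76 between Adam8 and Adamts1 and between Adam8 and Adamts18, 0.7 between Adam8 and Tmprss6, and 0.02 between Adam8 and Tmprss11a. Adam17 and Adamts15 had the lowest value at -0.5. Among 10329 other genes, the patterns most like Tmprss11a were those of Ecscr (0.96) and Pbx3 (0.94). For Adam8 they were Mboat7 and Serf1 (0.96 each), for Tmprss6 Bmp3 (0.92) and Cnpy4 (0.91), and for Adamts1 Palld (0.96) and Tpst1 (0.95). Adam17 was most like Copg1 and Med9 (0.92 each) and Adamts15 most like Armcx6 and Bbox1 (0.93 each). Adamts18, among 10330 genes, was most like Apool and Aldh5a1 (0.96 each). All these values share the same 12 groups of libraries and are descriptions.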

How the data were processed

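RNA of 37 libraries of sorted mature luminal cells was analysed. The authors deposited whole-number counts per gene and RPKM values for 52636 Ensembl genes per library; RPKM was not used. The build was GRCm38, per the submitters' processing notes. How reads were aligned and counted, and whether by strand, is not given in the sources used here. For 85.6% of genes the width column of the tables matched the annotated span from start to end, introns included. Symbols matched for 52403 identifiers and not for 233.

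The deposited counts of all 37 libraries were fitted with edgeR 4.0.16 under R 4.3.3, with a coefficient per group, filterByExpr, TMM factors of 0.77 to 1.17 and the robust quasi-likelihood F test, which tested 18426 genes. In each of 19 comparisons p-values were adjusted by Benjamini-Hochberg over the tested genes, and a gene was called under 0.05. Log2 fold changes are given ± SE, and CPM, counts scaled to the TMM-adjusted library total, are given as mean ± SD. The fit was tested on simulated data.

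The members and the lists of related genes and markers were chosen with earlier results of these data known. Named were all 7 members and, per list and hormone comparison, up to 2 called genes that rose most and up to 2 that fell most, from genes whose mean log2 CPM was 2 or more. For each member the 2 genes with the most similar group means were named too. The neighbours within 500 kb of a member were added by position. Over 178 pairs of libraries with the same number in different groups, 14 deviated together with a correlation over 0.1. The median was 0 and the range -0.5 to 0.56. The highest value was that of WT placebo 2 with WT P4 2, and number 3 of the same groups gave 0.17. The numbers were not taken as pairs. The median pools pairs across genotypes, so it cannot exclude pairing between some groups. Library pairs of a group differed by a chi-square per degree of freedom of 23.3 to 313, so none was counted as a duplicate. Alternatives were RLE factors, DESeq2 1.42.0, no filter on low counts, the number as a block, the earlier identifier series alone, each library left out in turn, WT placebo 2 and WT P4 2 left out together, and CPM over the plain total.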

Additional observations from a re-analysis of the deposited data

Results flagged for a closer look

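A hormone response differed between mutant and WT cells, by the interaction term of the fit across all genes, for 9 of the 42 differences fitted (7 genes in 6 comparisons). Over all tested genes, 3.35% to 9.23% were called in these 6 comparisons. Among the 9, the lower response of Tmprss11a to E2+P4 in D542G (-7.12) contains the D542G placebo against WT placebo difference by which the gene counts as chosen, and is a description with no test. Lower responses in mutant cells were also those of Tmprss11a to E2 in Y541S (-6.84) and to E2+P4 in Y541S (-6.50). Both use the Y541S and WT placebo libraries, which also enter comparisons by which the gene counts as chosen. Adam8 had lower responses in Y541S cells to E2 (-3.87) and to E2+P4 (-3.86), and Adamts15 a lower response to E2 in D542G cells (-4.49). Higher responses in mutant cells, all in D542G, were those of Adamts15 to P4 (4.01), Adam8 to P4 (3.84) and Adam17 to E2 (0.97). All values are log2 differences, mutant response minus WT response.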

How the results depend on the processing

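With RLE factors the number of members called stayed within 1.5 times in all 19 comparisons. Without the filter on low counts the members called were 1 for WT P4 against placebo (2 in the report), 1 for D542G E2 (3), 1 for D542G placebo against WT placebo (2) and 1 for the D542G P4 response against that of WT (2). DESeq2 called 4 members for the Y541S P4 response (0), among them Tmprss11a, whose difference there is given with no test. It also gave 55 calls, summed over the matrix substrate genes and the 9 hormone comparisons (32). In the earlier identifier series alone the members called were 1 for WT P4, 2 for WT E2+P4 against WT P4 (4), 1 for Y541S E2 (0), 1 for the Y541S E2 response (2) and 1 for the Y541S E2+P4 response (2). Without WT placebo 2 and WT P4 2 together they were 0 for WT P4, 1 for D542G placebo against WT placebo and 0 for the D542G P4 response. The library numbers were not taken as pairs. With them as a replicate block the members called were 1 for WT P4, 4 for the D542G P4 response and 1 for the Y541S P4 response. The 4 include Tmprss11a, whose difference there is given with no test. The causes of these shifts were not tested.

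Leaving out each library in turn gave between 3 and 7 members called for WT E2 (5), 0 and 1 for WT P4, 1 and 2 for D542G E2, 0 and 1 for Y541S E2 and 1 and 3 for Y541S P4 (2). It gave between 2 and 4 for WT E2+P4 against WT P4, 1 and 2 for D542G placebo against WT placebo, 0 and 2 for the D542G P4 response, 1 and 3 for the Y541S E2 response and 0 and 1 for the Y541S P4 response. Where 2 libraries remain in a group, the fit takes the spread from all groups. CPM over the plain total moved 6 of the 84 group levels by more than their SD, among them Adam17 in D542G E2, at 177 in place of 200 CPM.

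The values that changed sign were not past the threshold as reported. With the replicate block they were, for Adamts1, 0.51 in Y541S E2 and 0.18 in Y541S E2+P4. For Adamts18 they were -0.35 in WT P4, -0.13 in Y541S placebo and 0.05 in the Y541S E2 response, and for Tmprss6 0.20 in the D542G E2 response and -0.35 in the D542G P4 response. In the earlier series they were 0.68 and 0.32 for Adamts1 in Y541S E2 and E2+P4, and -0.18, -0.42 and 0.31 for Adamts18 in WT P4, Y541S placebo and the Y541S E2 response. Adam17 in WT P4 was -0.01 with RLE factors, -0.01 with DESeq2 and -0.07 without WT placebo 2 and WT P4 2. Adamts15 in D542G placebo was 0.00 without the filter.

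Over single left-out libraries the ranges of values that changed sign were as follows. WT P4 gave -2.59 to 0.36 for Tmprss11a, -0.05 to 0.08 for Adam17 and -0.26 to 0.46 for Adamts18. Tmprss6 gave -0.05 to 2.37 in WT E2, -1.22 to 1.20 in the D542G E2 response, -1.26 to 0.79 in the D542G P4 response and -1.74 to 0.68 in the Y541S E2 response. Y541S E2 gave -0.13 to 0.03 for Adam17 and -0.36 to 0.69 for Adamts1, and Y541S E2+P4 -0.72 to 0.32 for Adamts1. Adamts18 gave -0.62 to 0.03 in WT E2+P4 against WT E2, -0.01 to 0.59 in D542G placebo, -0.42 to 0.31 in Y541S placebo and -0.56 to 0.30 in the Y541S E2 response. Adamts15 gave -0.32 to 0.33 in D542G placebo and -0.29 to 0.94 in the Y541S E2+P4 response.

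Over all genes, the 263 called for WT P4 were 160 without the filter, 79 with the block, 142 without WT placebo 2 and WT P4 2, 755 by DESeq2 and 22 to 384 over single left-out libraries. The 372 for D542G placebo were 242 without that pair and 669 by DESeq2. The 857 for Y541S E2 were 1743 in the earlier series and 1429 by DESeq2, and the 4274 for WT E2+P4 against WT P4 were 2792 in the earlier series. For the responses, D542G P4 (617) gave 233 without that pair and 1277 by DESeq2, D542G E2+P4 (792) gave 424 and 1429, and Y541S E2 (1478) gave 941 in the earlier series. Y541S P4 (1350) gave 349 with the block, 510 in the earlier series, 899 without that pair and 2134 by DESeq2. Single left-out libraries moved other counts by more than 1.5 times as well. Y541S E2 gave 1786 without Y541S placebo 5 and 299 without Y541S E2 1, D542G P4 (3385) gave 1723 without D542G P4 2, and WT E2+P4 against WT E2 (3406) gave 2028 without WT E2+P4 3. D542G placebo gave 168 without D542G placebo 3, and Y541S placebo against WT placebo (2469) gave 1487 without WT placebo 3.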
